A study of Caenorhabditis elegans with 3 samples.

Results

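The comparison of dcr-1 RNAi with mock in young adult Caenorhabditis elegans covers every gene that the authors listed for that pair of libraries, 9631 genes of the 10168 listed anywhere in the series. No gene was chosen by its value. Both groups were nematodes of a fem-1 strain whose allele the labels do not name, harvested as young adults at 2.5 days. The dcr-1 RNAi group was fed double-stranded RNA against dcr-1, and the mock group received a mock feeding whose food the labels do not specify. PolyA RNA of each group was sequenced as 1 library, and another library of the same strain and age, fed against drsh-1, served as a further control. Loss of dcr-1 leaves animals sterile, and a fem-1 strain was chosen so that the controls were sterile too, per the labels.

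Dicer, the product of dcr-1, is the enzyme that chops double-stranded RNA and hairpin precursors of microRNAs into short regulatory RNAs. In nematodes a single Dicer serves both the microRNA pathway and the response to foreign or endogenous double-stranded RNA. Drosha, the product of drsh-1, acts earlier in the microRNA pathway, by freeing precursors from nuclear transcripts. Fed RNAi itself is processed by Dicer, so dcr-1 RNAi is aimed at a factor that its own feeding needs.

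Values are FPKM, the fragments mapped to a gene per kilobase of its transcript, scaled by the authors to the library, and ratios are log2 of (dcr-1 RNAi FPKM + 1) over (mock FPKM + 1). The added 1 FPKM understates the ratio of low genes. With 1 library a side no ratio has a replicate check, so sizes are described and none is tested. The depth of the libraries is unknown. Every listed gene was above 2 FPKM in both libraries, so a gene under that level in either one is missing. Another 537 genes appeared in the drsh-1 list alone, including 55 with a mock level of 10 FPKM or above, and genes under the limit in dcr-1 RNAi would be among these. In whole animals, fewer cells of a type and less RNA per cell cannot be told apart.

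The dcr-1 transcript itself was at 23.8 FPKM in the dcr-1 RNAi library, against 36.8 FPKM in mock (log2 ratio -0.61). That of drsh-1 was at 33.2 FPKM in dcr-1 RNAi, against 26.2 FPKM in mock (0.33). Its partner pash-1 was at 33.9 in dcr-1 RNAi and 36.6 FPKM in mock (-0.11). For 1 of these 3 genes the mock value differs between the deposited tables. Like dcr-1, 1336 listed genes were at least 1.5-fold below mock.

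Markers of the germ line, oocytes and neurons differed little as lists, whereas those of muscle were all above mock and those of the intestine were spread to both sides. The 10 listed germ line markers summed to 1141 FPKM in the dcr-1 RNAi library and 1137 FPKM in mock, and the 11 oocyte markers to 6212 FPKM in dcr-1 RNAi against 5339 FPKM in mock. The 8 neuron markers summed to 431 FPKM in dcr-1 RNAi against 439 FPKM in mock. The 13 listed sperm genes summed to only 148 FPKM in dcr-1 RNAi, against 137 FPKM in mock, and 4 early embryonic genes to 19.04 in dcr-1 RNAi and 12.4 FPKM in mock. fem-1 is known as a gene needed for male fate and sperm, and the sperm sum was far under the oocyte sum in both libraries. Of 9 intestinal markers, 2 were higher by at least 2-fold and 4 lower, and 1 and 4 with a common sum. The yolk gene vit-2 and the protease gene cpr-1, the most abundant of them in mock, weighed most in the summed level, 905 FPKM in dcr-1 RNAi against 2468 FPKM in mock. elt-2, the transcription factor gene that defines intestinal identity, was at 5.49 FPKM in dcr-1 RNAi against 5.81 FPKM in mock (-0.07). act-5, the actin gene of the intestinal microvilli, was at 146 in dcr-1 RNAi and 24.7 FPKM in mock (2.51), and ges-1, an intestinal esterase gene, at 4.70 FPKM in dcr-1 RNAi against 12.8 FPKM in mock (-1.28). All 7 listed muscle markers were above mock, summing to 1198 in dcr-1 RNAi and 552 FPKM in mock.

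Across all listed genes, the dcr-1 RNAi level was at least 2-fold above mock for 646 (6.71% of 9631) and at least 2-fold below it for 629 (6.53%). The median log2 ratio was 0.06, with quartiles of -0.30 and 0.38. At least 4-fold apart were 108 higher and 100 lower genes, and at least 16-fold apart 7 and 5. Genes just inside the bound of 2-fold were K08D8.6 (1.0005) and ZK185.1 (-1.00004), and just outside it lay Y59A8B.6 (0.999) and D1054.5 (-0.999). The 963 genes with the highest mean level held 98 higher and 22 lower genes, with a median of 0.24. In 9 groups of like size at lower levels the medians ran from -0.04 to 0.09.

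The listed genes summed to 819608 FPKM in the dcr-1 RNAi library and 668652 FPKM in mock, a ratio of 1.23. Scaling both libraries to a common sum moved the median log2 ratio of all genes to -0.21. The count above mock by at least 2-fold was then 350 and the count below it 1000, so that 25.9% of the genes apart were higher, against 50.7% as deposited. Directions and counts below are those on the deposited scale, and counts of list members at least 2-fold apart that a common sum moved by more than 1.5 times are given with it. Of 71 list medians, 30 changed sign under at least 1 other setting. Of the lists described here, these were the germ line, oocyte, neuron, intestinal and larval molting markers, the B12-dependent propionate route, lipid binding proteins, glycolysis and gluconeogenesis, trehalose and glycogen metabolism, the respiratory chain and muscle calcium handling. They were also mitochondrial ribosomal proteins, eIF4E factors, core histones, oocyte and maternal RNA regulators, meiosis and germ granule genes, poly(A) binding and polymerase genes, C-type lectins, cytochrome P450 genes, lysozymes, cathepsin D genes, chaperones, nuclear hormone receptors and sex determination genes.

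**Figure D1:**
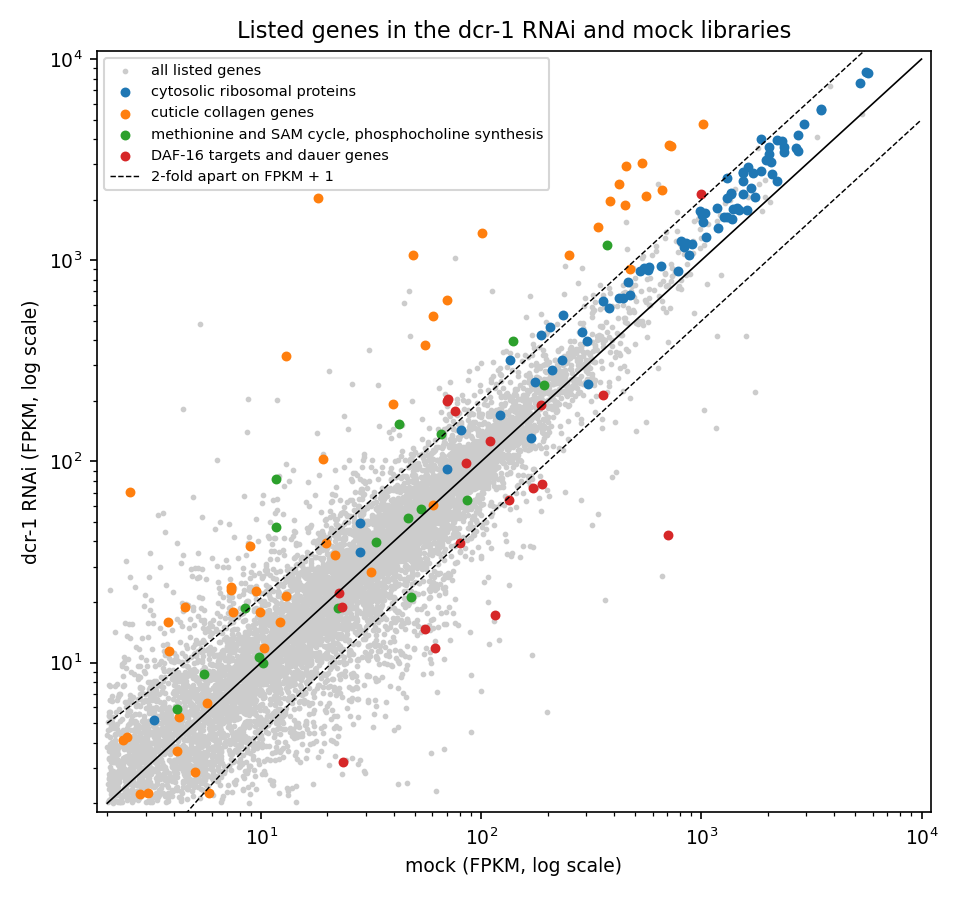
FPKM of each of 9631 listed genes, 1 point a gene, in dcr-1 RNAi (vertical, log scale) against mock (horizontal, log scale), with 4 gene lists in colour, the line of equal values and dashed lines 2-fold apart on the FPKM + 1 scale. Most cuticle collagen genes lie above the upper dashed line, ribosomal protein genes lie in a tight band just above the line of equal values, and 9 of 19 DAF-16 and dauer genes lie below the lower dashed line.

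Differences in collagens of the cuticle and proteins of the cytosolic ribosome amounted to most of the net difference between the summed levels. That net difference of 150956 FPKM combines summed gains of 213912 FPKM and summed losses of -62956 FPKM, so shares of it exceed shares of the gains. The 15 largest gains in FPKM held 7 collagens and 6 ribosomal proteins, and the 100 largest gains 18 and 39. The 48 listed cuticle collagens summed to 39392 FPKM in dcr-1 RNAi, against 7684 FPKM in mock, which is 4.81% of all listed FPKM in dcr-1 RNAi and 1.15% in mock. That difference was 21% of the net summed difference between the libraries. The 81 ribosomal protein genes summed to 164204 FPKM in dcr-1 RNAi against 108942 FPKM in mock, 36.6% of the net difference.

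Among single genes the largest gain was that of the collagen col-119, at 4759 FPKM in the dcr-1 RNAi library and 1013 FPKM in mock (2.23). Other abundant collagens stood in a similar proportion, among them col-140 at 3749.5 in dcr-1 RNAi and 714 FPKM in mock (2.39), col-122 at 3714 FPKM in dcr-1 RNAi against 725 FPKM in mock (2.36), col-101 at 3053 in dcr-1 RNAi and 536 FPKM in mock (2.51) and col-20 at 2955 FPKM in dcr-1 RNAi against 453 FPKM in mock (2.70). The collagen col-93 had the highest ratio of all genes, at 2043 FPKM in dcr-1 RNAi against 18.04 FPKM in mock (6.75), and drsh-1 RNAi, against the same mock, gave it 2.96. Others far apart were col-160 at 1059 FPKM in dcr-1 RNAi against 48.9 FPKM in mock (4.41), col-159 at 70.9 in dcr-1 RNAi and 2.54 FPKM in mock (4.34), col-80 at 1373 in dcr-1 RNAi and 101 FPKM in mock (3.75), col-103 at 633 FPKM in dcr-1 RNAi against 70.2 FPKM in mock (3.15) and Y69H2.14, col-42 in RefSeq, at 335 in dcr-1 RNAi and 12.99 FPKM in mock (4.59). In all, 42 of the 48 were above mock, 30 at least 2-fold, and col-116 was the only member at least 2-fold lower, at 2.24 FPKM in dcr-1 RNAi against 5.79 FPKM in mock (-1.07). Reads of near-identical collagens, actins, yolk genes, histones and antimicrobial peptides may have been shared between copies, so values of single members of these families are uncertain.

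Markers of the epidermis, the tissue that secretes the cuticle, were close to mock apart from a collagen. The adult cuticle collagen col-19 was at 1455 FPKM in dcr-1 RNAi, against 340 FPKM in mock (2.095). elt-3, an epidermal GATA factor gene, was at 7.80 in dcr-1 RNAi and 7.67 FPKM in mock (0.02), lin-26, a zinc finger factor gene of epidermal fate, at 22.1 FPKM in dcr-1 RNAi against 24.8 FPKM in mock (-0.16) and the collagen sqt-3 at 28.2 in dcr-1 RNAi and 31.5 FPKM in mock (-0.15). The 5 larval molting and stage markers summed to 81.7 FPKM in dcr-1 RNAi against 98.4 FPKM in mock, and mlt-8, at 8.12 in dcr-1 RNAi and 3.25 FPKM in mock (1.102), was the member at least 2-fold apart. With a common sum 0 of these markers were at least 2-fold apart.

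Enzymes that build collagen were less uniform. Of 10 collagen-modifying genes, 3 were at least 2-fold higher and 1 lower, and 1 and 1 with a common sum. pdi-1, a protein disulfide isomerase, was at 348 FPKM in dcr-1 RNAi, against 126 FPKM in mock (1.46), and pdi-3, another isomerase, at 114 in dcr-1 RNAi and 234 FPKM in mock (-1.03). phy-2, a prolyl hydroxylase subunit, was at 23.7 FPKM in dcr-1 RNAi against 10.9 FPKM in mock (1.06), and let-268, a lysyl hydroxylase of basement membrane collagen, at 9.13 in dcr-1 RNAi and 3.61 FPKM in mock (1.14). In the basement membrane, which underlies epidermis and muscle, 7 of 8 genes were above mock with a median of 0.89. Both type IV collagen genes were among them, emb-9 at 53.99 FPKM in dcr-1 RNAi against 24.5 FPKM in mock (1.11) and let-2 at 67.2 in dcr-1 RNAi and 35.7 FPKM in mock (0.90), as was the SPARC gene ost-1 at 232 FPKM in dcr-1 RNAi against 126 FPKM in mock (0.88). The laminin gene lam-2 was at 5.91 in dcr-1 RNAi and 8.53 FPKM in mock (-0.46). The mock value of emb-9 differs between the 2 deposited tables, which was so for 416 genes.

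Among the muscle lists besides the markers, that of troponin and tropomyosin genes had the highest median. Of 11 troponin and tropomyosin genes, 10 were above mock and 5 at least 2-fold higher, with a median of 0.71. The troponin T gene mup-2 was at 79.2 FPKM in the dcr-1 RNAi library and 16.3 FPKM in mock (2.22). Among the troponin I genes, unc-27 was at 755 FPKM in dcr-1 RNAi against 347 FPKM in mock (1.12), tni-3 at 41.6 in dcr-1 RNAi and 12.7 FPKM in mock (1.64) and tni-1 at 30.7 FPKM in dcr-1 RNAi against 9.16 FPKM in mock (1.64), while the pharyngeal tni-4 was at 45.1 in dcr-1 RNAi and 49.6 FPKM in mock (-0.13). The tropomyosin gene lev-11 was at 588 FPKM in dcr-1 RNAi against 361 FPKM in mock (0.70). Of 21 thick filament, actin and sarcomere genes 6 were at least 2-fold higher and 0 lower, with a median of 0.41. With a common sum these were 2 and 1, with a median of 0.12. They included unc-54, the major body wall myosin, at 183 in dcr-1 RNAi and 83.5 FPKM in mock (1.12), and unc-15, encoding paramyosin, at 189 FPKM in dcr-1 RNAi against 69.8 FPKM in mock (1.42), whose mock value differs between the tables. Actin genes of that list lay on both sides, act-1 with a ratio of 1.22 and act-3 with -0.94. Attachment genes, which tie muscle to the epidermis and cuticle, had a median of 0.42 over 18 genes. There the intermediate filament gene mua-6 stood out at 53.02 in dcr-1 RNAi and 5.37 FPKM in mock (3.08), followed by ifb-1 at 44.9 FPKM in dcr-1 RNAi against 14.1 FPKM in mock (1.61). The calcium store protein gene csq-1 was at 149 in dcr-1 RNAi and 71.6 FPKM in mock (1.05), but the calcium pump gene sca-1 was at 152 FPKM in both libraries.

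**Figure D2:**
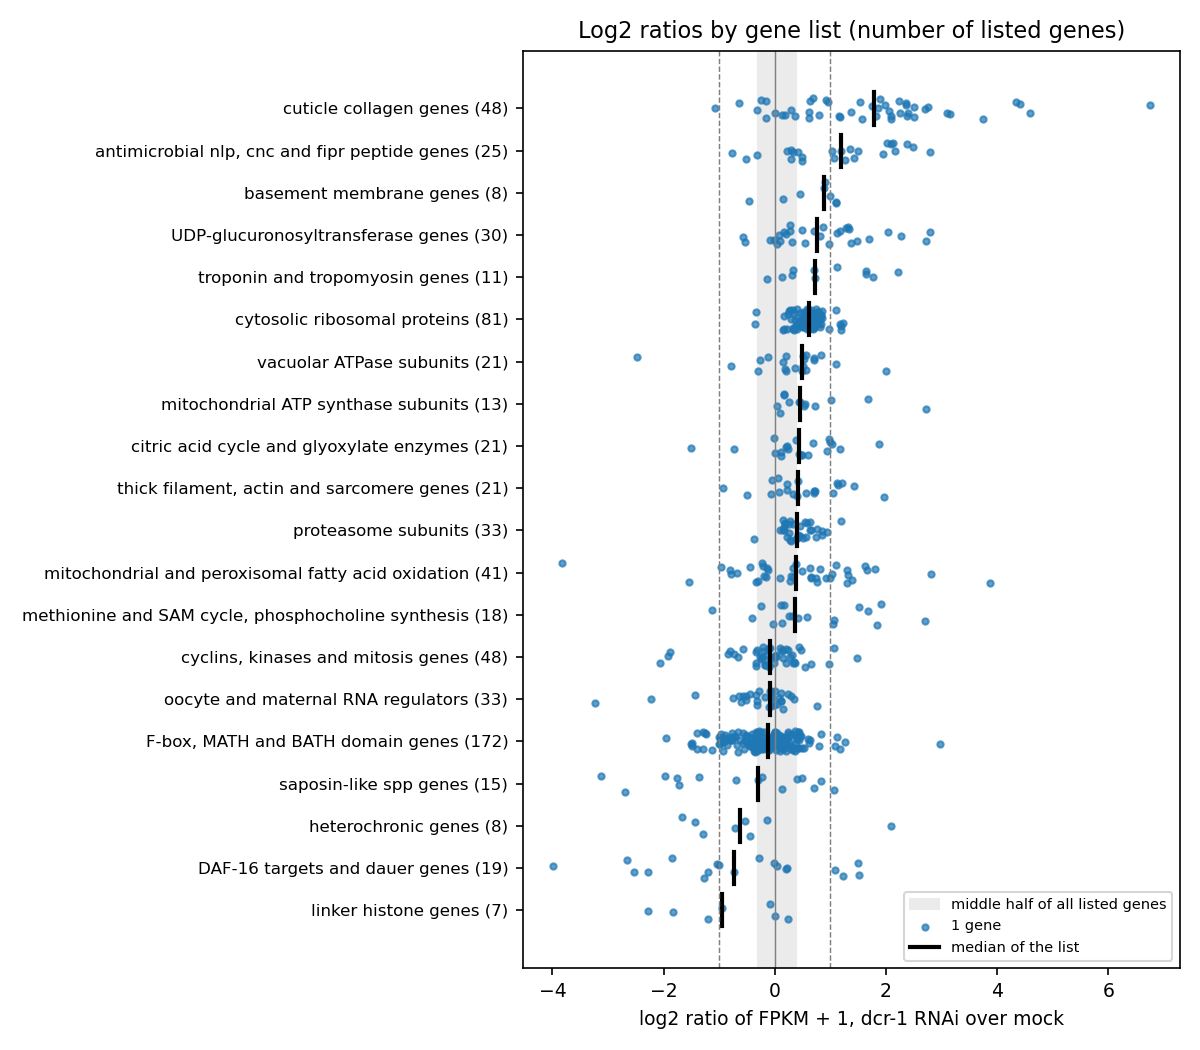
Log2 ratio of each listed gene, dcr-1 RNAi over mock, in 20 gene lists (1 point a gene, black bar the list median, number of listed genes in brackets), with the middle part of all listed genes between the quartiles of -0.30 and 0.38 in grey and dashed lines at 2-fold. Collagens (median 1.79) and antimicrobial nlp, cnc and fipr peptides (1.198) sit farthest to the right, and linker histones (-0.95) and DAF-16 and dauer genes (-0.74) farthest to the left.

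Enzymes of propionate breakdown differed by route. Propionate is normally burned through a pathway that needs vitamin B12, and worms short of the vitamin use a shunt that begins with the acyl-CoA dehydrogenase ACDH-1. Of the 5 shunt genes listed, 4 were at least 2-fold higher, and 2 with a common sum. acdh-1 was at 703 FPKM in dcr-1 RNAi, against 47.2 FPKM in mock (3.87), and the next enzyme, the hydratase gene ech-6, at 308 FPKM in dcr-1 RNAi against 99.5 FPKM in mock (1.62). The hydrolase F09F7.4, hach-1 in RefSeq, followed at 87.6 in dcr-1 RNAi and 35.4 FPKM in mock (1.28), and the dehydrogenase Y38F1A.6, hphd-1 in RefSeq, at 55.4 FPKM in dcr-1 RNAi against 23.03 FPKM in mock (1.23). alh-8, the last step, was on the other side at 30.2 in dcr-1 RNAi and 45.1 FPKM in mock (-0.56), and the mock values of Y38F1A.6 and alh-8 differ between the tables. In the B12-dependent route 4 of 6 genes were above mock, the highest with a ratio of 0.88. At least 2-fold apart were 0 higher and 1 lower, or 0 and 2 with a common sum. The median of this route, 0.16, turned below 0 with a common sum, and its mean was -0.12. mmcm-1, the methylmalonyl-CoA mutase that uses the vitamin, was at 4.86 FPKM in dcr-1 RNAi against 14.4 FPKM in mock (-1.39), and the epimerase gene mce-1 at 85.2 in dcr-1 RNAi and 155 FPKM in mock (-0.86). Both carboxylase subunits were close to mock, pcca-1 at 125 FPKM in dcr-1 RNAi against 123 FPKM in mock (0.03) and pccb-1 at 137 in dcr-1 RNAi and 109 FPKM in mock (0.33).

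The other B12-dependent reaction in the worm is methionine synthesis, and 14 of 18 genes of the methionine cycle and of phosphocholine synthesis were above mock. The cycle makes S-adenosylmethionine, the methyl donor for phosphatidylcholine, and 7 of the 18 were at least 2-fold higher and 1 was lower. The methionine synthase R03D7.1, metr-1 in RefSeq, was at 153 FPKM in the dcr-1 RNAi library and 42.3 FPKM in mock (1.83). The S-adenosylmethionine synthetase sams-1 was at 81.7 FPKM in dcr-1 RNAi against 11.7 FPKM in mock (2.70), and K02F2.2, the adenosylhomocysteinase gene ahcy-1 in RefSeq, at 1191 in dcr-1 RNAi and 373 FPKM in mock (1.67). On the folate side of the cycle, the serine hydroxymethyltransferase gene mel-32 was at 398 FPKM in dcr-1 RNAi against 139 FPKM in mock (1.51) and the folate reductase C06A8.1, mthf-1 in RefSeq, at 136 in dcr-1 RNAi and 65.9 FPKM in mock (1.04). The folate transporter family gene folt-2, among the 25 highest ratios, was at 54.03 FPKM in dcr-1 RNAi against 3.41 FPKM in mock (3.64). The choline kinase gene ckb-2 was at 47.01 in dcr-1 RNAi and 11.7 FPKM in mock (1.92), whereas its paralog ckb-4 was at 10.01 FPKM in dcr-1 RNAi against 10.2 FPKM in mock (-0.03). In the branch that leaves the cycle towards cysteine, the cystathionine lyases were on both sides, F22B8.6 (cth-1 in RefSeq) at 18.8 in dcr-1 RNAi and 8.49 FPKM in mock (1.06) and ZK1127.10 (cth-2) at 21.2 FPKM in dcr-1 RNAi against 47.8 FPKM in mock (-1.13). nhr-114, a nuclear receptor gene known to act on this cycle, was at 54.8 in dcr-1 RNAi and 12.6 FPKM in mock (2.04). F43E2.5, in RefSeq the methionine sulfoxide reductase gene msra-1, was at 139 FPKM in dcr-1 RNAi against 8.64 FPKM in mock (3.86).

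Against the same mock library, drsh-1 RNAi gave acdh-1 a log2 ratio of 2.73 and ech-6 0.60, beside 3.87 and 1.62 in dcr-1 RNAi. In the methionine cycle it gave sams-1 0.55, R03D7.1 0.13 and mel-32 0.01, beside 2.70, 1.83 and 1.51 in dcr-1 RNAi. Since both comparisons share the mock library, these values are not independent of each other.

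**Figure D3:**
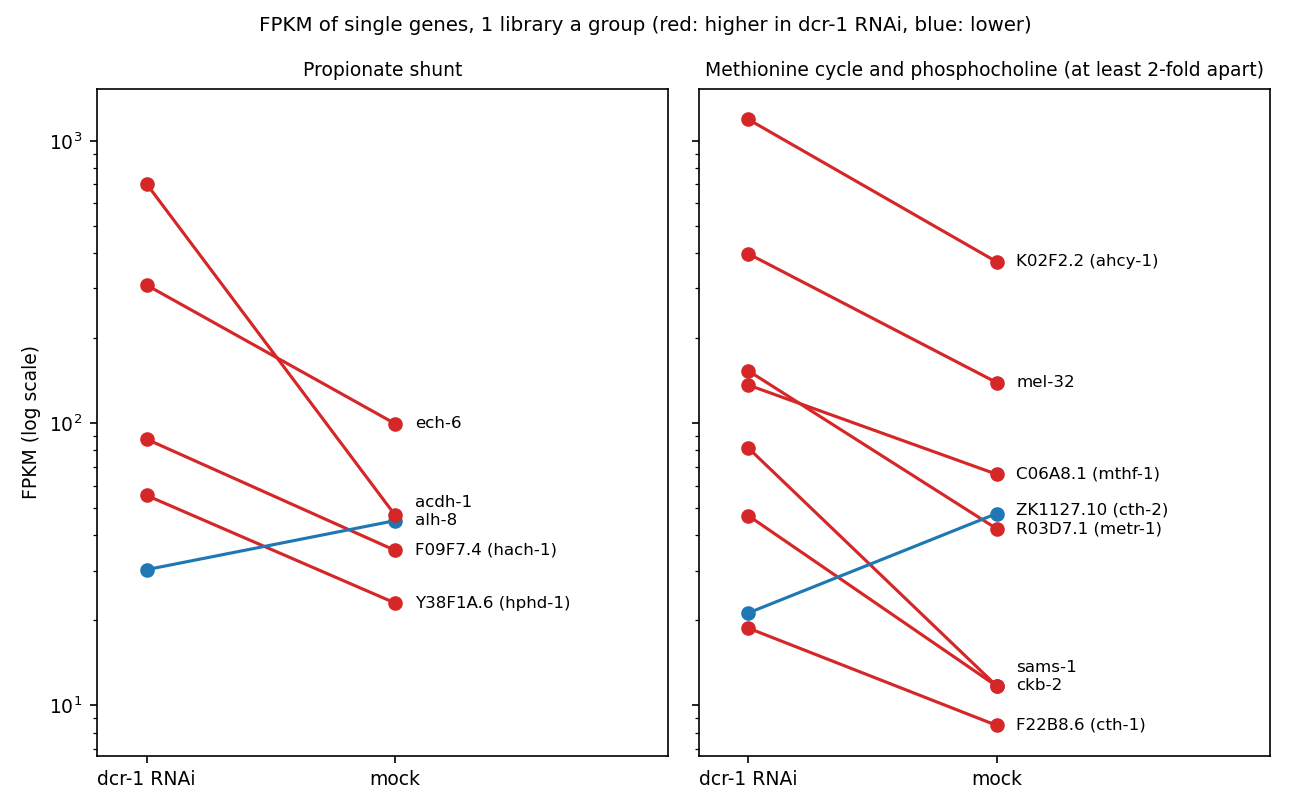
FPKM (log scale) of single genes in the dcr-1 RNAi library (left) and the mock library (right) for the propionate shunt and for the methionine cycle and phosphocholine genes that were at least 2-fold apart, 1 line a gene. Lines of genes higher in dcr-1 RNAi are red and those of lower genes blue, and only alh-8 in the shunt and ZK1127.10 in the methionine panel are blue.

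Genes of fat use held members far above and far below mock. Of 41 genes of mitochondrial and peroxisomal fatty acid oxidation, 26 were above mock, beside 55.5% of all listed genes. At least 2-fold apart were 11 higher and 2 lower, or 9 and 5 with a common sum, and the median was 0.37. The highest of them was acdh-1 (3.87), which is also counted in the propionate shunt, so these lists overlap. Acyl-CoA synthetase genes lay far to both sides, F46E10.1 (acs-1 in RefSeq) at 96.7 FPKM in dcr-1 RNAi, against 12.9 FPKM in mock (2.81) and acs-2 at 10.9 in dcr-1 RNAi and 169 FPKM in mock (-3.84). The acyl-CoA oxidases of the peroxisome were likewise split, F08A8.1 (acox-1.1) at 11.95 FPKM in dcr-1 RNAi against 2.70 FPKM in mock (1.81), F58F9.7 (acox-3) at 14.6 in dcr-1 RNAi and 3.92 FPKM in mock (1.66) and C48B4.1 (acox-1.5) at 6.33 FPKM in dcr-1 RNAi against 20.4 FPKM in mock (-1.55). pmp-5, a transporter of the peroxisomal membrane, was at 66.6 in dcr-1 RNAi and 4.92 FPKM in mock (3.51).

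In lipid synthesis, the acyltransferase F59A1.10, dgat-2 in RefSeq, which makes triglycerides, was at 40.4 FPKM in the dcr-1 RNAi library and 9.65 FPKM in mock (1.96). The fatty acid elongase elo-2 was at 82.04 FPKM in dcr-1 RNAi against 27.996 FPKM in mock (1.52) and elo-5 at 194 in dcr-1 RNAi and 77.7 FPKM in mock (1.31). Among the desaturases, fat-6 was at 34.7 FPKM in dcr-1 RNAi against 131 FPKM in mock (-1.89) and fat-3 at 69.4 in dcr-1 RNAi and 155 FPKM in mock (-1.15). These were the only members at least 2-fold lower among 19 listed desaturase, elongase and lipid synthesis genes. Of the 19, 13 were above mock, beside 55.5% of all listed genes, and 3 at least 2-fold higher. F46B6.8, the lysosomal lipase gene lipl-2 in RefSeq, had the lowest ratio of all genes, at 5.69 FPKM in dcr-1 RNAi against 199 FPKM in mock (-4.90). The other listed lysosomal lipases were nearer to mock, ZK6.7 (lipl-5) at 316 in dcr-1 RNAi and 349 FPKM in mock (-0.14) and F01G10.7 (lipl-7) at 23.5 FPKM in dcr-1 RNAi against 35.9 FPKM in mock (-0.59). Lipid carriers lay on both sides, far-3 at 242 in dcr-1 RNAi and 25.8 FPKM in mock (3.18) and far-7 at 17.3 FPKM in dcr-1 RNAi against 115 FPKM in mock (-2.66). The intracellular carrier lbp-6 was at 491 in dcr-1 RNAi and 198 FPKM in mock (1.31) and lbp-1 at 25.2 FPKM in dcr-1 RNAi against 103 FPKM in mock (-1.99).

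Genes of sugar breakdown and synthesis lay closer to mock. Of 20 genes of glycolysis and gluconeogenesis 0 were at least 2-fold apart, or 1 lower with a common sum, ranging from ZK593.1 (pyk-2 in RefSeq), a pyruvate kinase, at 48.9 FPKM in dcr-1 RNAi, against 27.7 FPKM in mock (0.79) to W05G11.6 (pck-1), which opens gluconeogenesis, at 155 in dcr-1 RNAi and 284 FPKM in mock (-0.87). Their median of 0.14 turned below 0 with a common sum. The trehalase tre-2 was at 47.2 FPKM in dcr-1 RNAi against 16.6 FPKM in mock (1.45), while the other listed trehalases tre-1, tre-3 and tre-4 had ratios between -0.18 and -0.14. In the citric acid cycle 18 of 21 genes were above mock, with a median of 0.44. The isocitrate dehydrogenases were on opposite sides, C34F6.8 (idh-2) at 19.5 in dcr-1 RNAi and 4.57 FPKM in mock (1.88) and C37E2.1 (idhb-1) at 4.97 FPKM in dcr-1 RNAi against 16.03 FPKM in mock (-1.51).

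All 13 listed subunits and inhibitors of the mitochondrial ATP synthase were above mock, where 55.5% of all listed genes were, and 3 were at least 2-fold higher. Their median was 0.44, and 0.15 with a common sum. atp-2, the catalytic beta subunit, was at 918 FPKM in the dcr-1 RNAi library and 287 FPKM in mock (1.68), whereas H28O16.1, the alpha subunit gene atp-1 in RefSeq, was at 552 in dcr-1 RNAi and 493 FPKM in mock (0.16). atp-5 was at 46.3 FPKM in dcr-1 RNAi against 6.14 FPKM in mock (2.73), and drsh-1 RNAi, against the same mock library, gave it 2.38. Of 27 respiratory chain subunits, 24 were above mock and 0 at least 2-fold apart. Their median of 0.27 turned to -0.02 with a common sum. Of 21 vacuolar ATPase subunits, 16 were above mock, with a median of 0.49, or 0.20 with a common sum. At least 2-fold apart were 2 higher and 1 lower, or 1 and 2 with a common sum. The extremes were vha-5 at 29.8 in dcr-1 RNAi and 6.74 FPKM in mock (1.99) and vha-12 at 7.09 FPKM in dcr-1 RNAi against 43.99 FPKM in mock (-2.47).

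Several small families of stress, storage and digestion genes held members far apart in both directions. The metallothionein genes were opposed, mtl-2 at 291 FPKM in dcr-1 RNAi, against 122 FPKM in mock (1.25) and mtl-1 at 43.2 in dcr-1 RNAi and 703 FPKM in mock (-3.99). So were the ferritin genes, ftn-2 at 29.8 FPKM in dcr-1 RNAi against 7.07 FPKM in mock (1.93) and ftn-1 at 11.8 in dcr-1 RNAi and 49.6 FPKM in mock (-1.99). Among the small heat shock genes, hsp-17 was at 93.8 FPKM in dcr-1 RNAi against 23.7 FPKM in mock (1.94), hsp-12.3 at 20.4 in dcr-1 RNAi and 364 FPKM in mock (-4.09), and the heat-inducible hsp-16.2 at 45.6 FPKM in dcr-1 RNAi against 76.8 FPKM in mock (-0.74) and hsp-16.41 at 52.1 in dcr-1 RNAi and 65.01 FPKM in mock (-0.32). Among the yolk genes, vit-1 was at 612 FPKM in dcr-1 RNAi against 44.6 FPKM in mock (3.75), vit-3 at 703 in dcr-1 RNAi and 111.7 FPKM in mock (2.64) and vit-4 at 1029.6 FPKM in dcr-1 RNAi against 76.4 FPKM in mock (3.74). vit-2 was at 147 in dcr-1 RNAi and 1165 FPKM in mock (-2.98) and vit-6 at 2.29 FPKM in dcr-1 RNAi against 62.2 FPKM in mock (-4.26). Added up, these 5 yolk genes and the oocyte yolk receptor gene rme-2 came to 2557 FPKM in the dcr-1 RNAi library and 1546 FPKM in mock, and rme-2 itself was at 63.3 in dcr-1 RNAi and 85.8 FPKM in mock (-0.43). The yolk gene vit-5 is not in this sum. In drsh-1 RNAi, set against the same mock, vit-1, vit-3 and vit-4 had ratios of 1.68, 1.51 and 2.08, and vit-2 and vit-6 had 0.10 and 0.19.

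Lysosomal and gut proteases were also split. Among cathepsin B genes, cpr-6 was at 920.0 FPKM in dcr-1 RNAi, against 491 FPKM in mock (0.91, with unequal mock values) and cpr-1 at 181 FPKM in dcr-1 RNAi against 1030.4 FPKM in mock (-2.50). Among cathepsin D genes, F28A12.4 (asp-13 in RefSeq) was at 145 in dcr-1 RNAi and 39.6 FPKM in mock (1.84), asp-4 at 479.6 FPKM in dcr-1 RNAi against 222 FPKM in mock (1.11) and asp-1 at 6.54 in dcr-1 RNAi and 25.2 FPKM in mock (-1.79). The cathepsin L gene cpl-1 was at 519.7 FPKM in dcr-1 RNAi against 159 FPKM in mock (1.70). Both cathepsin lists were drawn up after values had been seen and describe only these libraries.

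**Figure D4:**
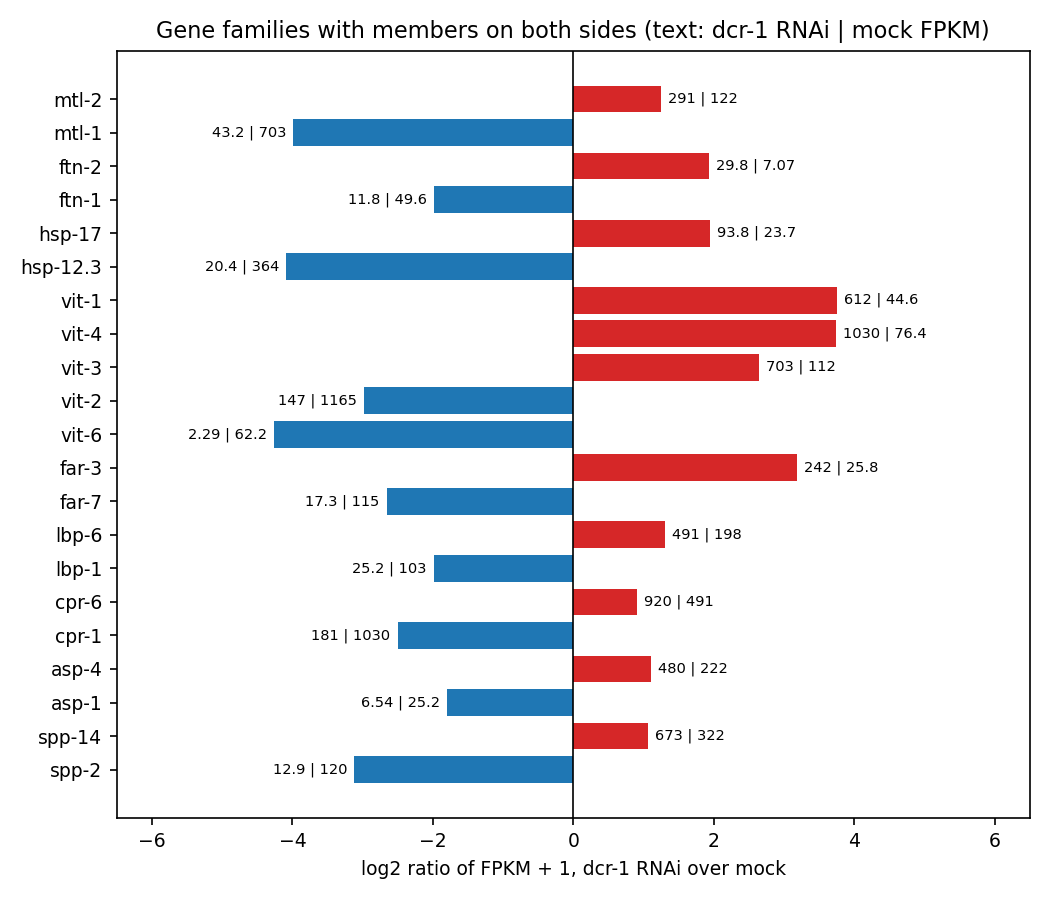
Log2 ratio of FPKM + 1, dcr-1 RNAi over mock, of 21 genes from small families with members on both sides, the text beside each bar giving dcr-1 RNAi and mock FPKM. The families, from metallothioneins (mtl) to saposin-like genes (spp), were picked for having members above and below 0, with mtl-1 at -3.99 beside mtl-2 at 1.25.

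The defence peptides differed by family. The nlp, cnc and fipr peptide genes encode small glycine-rich antimicrobial peptides, several of them made by the epidermis. Of 25 listed, 15 were at least 2-fold higher in dcr-1 RNAi and 0 lower, with a median of 1.198. nlp-24 was at 241 FPKM in the dcr-1 RNAi library and 34.1 FPKM in mock (2.78), nlp-27 at 770.2 in dcr-1 RNAi and 274 FPKM in mock (1.49) and cnc-7 at 65.2 FPKM in dcr-1 RNAi against 11.8 FPKM in mock (2.37), whereas nlp-28 was at 102 in dcr-1 RNAi and 147 FPKM in mock (-0.51). Saposin-like spp genes, whose products include membrane-piercing peptides of the gut, had a median of -0.31 over 15 genes, 1 at least 2-fold higher and 6 lower, or 0 and 6 with a common sum. spp-2 was at 12.9 FPKM in dcr-1 RNAi against 120.4 FPKM in mock (-3.12), spp-8 at 48.1 in dcr-1 RNAi and 317 FPKM in mock (-2.70), spp-1 at 157 FPKM in dcr-1 RNAi against 404 FPKM in mock (-1.36) and spp-14 at 673 in dcr-1 RNAi and 322 FPKM in mock (1.06). These lists were split out of a longer one after values had been seen. abf-2, a defensin-like peptide gene, was at 12.95 FPKM in dcr-1 RNAi against 71.9 FPKM in mock (-2.39), and the lysozyme gene lys-4 at 147 in dcr-1 RNAi and 352 FPKM in mock (-1.25).

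Of 30 listed UDP-glucuronosyltransferase genes, whose enzymes attach sugar to foreign compounds, 12 were at least 2-fold higher and 0 lower, with a median of 0.76. ugt-41 was at 30.01 FPKM in dcr-1 RNAi, against 3.49 FPKM in mock (2.79), ugt-22 at 84.7 FPKM in dcr-1 RNAi against 12.1 FPKM in mock (2.71) and ugt-63 at 14.2 in dcr-1 RNAi and 2.17 FPKM in mock (2.27). A further 4 genes of the family were listed for drsh-1 RNAi only. Cytochrome P450 genes, which act on many of the same compounds, were at least 2-fold higher in 2 of 31 cases and lower in 3, or 1 and 5 with a common sum, and their median of 0.08 turned below 0 with a common sum. Of 27 glutathione S-transferase genes 3 were higher and 1 lower, or 3 and 2 with a common sum, among them gst-4 at 41.3 FPKM in dcr-1 RNAi against 13.7 FPKM in mock (1.53) and gst-15 at 4.01 in dcr-1 RNAi and 19.4 FPKM in mock (-2.03). C-type lectins numbered 6 higher and 4 lower of 54, 11.1% and 7.41%, beside 6.71% and 6.53% of all listed genes. With a common sum they numbered 5 and 7, and their median of 0.11 turned to -0.15. The highest of them, clec-47, was at 138 FPKM in dcr-1 RNAi against 17.9 FPKM in mock (2.87), and the most abundant of the lower ones, clec-266, at 418 in dcr-1 RNAi and 1179 FPKM in mock (-1.49).

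Targets of the FOXO factor DAF-16 and genes of the dauer larva, a stress-resistant stage, were mostly below mock. Of 19 listed, 9 were at least 2-fold lower, 4 were at least 2-fold higher and the median was -0.74. With a common sum 10 were lower and 2 higher. Besides mtl-1 and far-7, the lower ones included the linker histone gene hil-1 at 11.8 FPKM in the dcr-1 RNAi library and 61.8 FPKM in mock (-2.29), the transhydrogenase gene nnt-1 at 3.21 FPKM in dcr-1 RNAi against 23.5 FPKM in mock (-2.54) and the desiccation protein gene lea-1 at 64.6 in dcr-1 RNAi and 134 FPKM in mock (-1.04). Higher were dod-24 at 205 FPKM in dcr-1 RNAi against 70.9 FPKM in mock (1.52), dct-18 at 199 in dcr-1 RNAi and 69.9 FPKM in mock (1.496), dod-19 at 177 FPKM in dcr-1 RNAi against 75.6 FPKM in mock (1.22) and dct-16 at 2123 in dcr-1 RNAi and 998 FPKM in mock (1.09). The long noncoding RNA tts-1, which is abundant in long-lived insulin receptor mutants, was at 419 FPKM in dcr-1 RNAi against 1597 FPKM in mock (-1.93). Outside the 19, the alcohol dehydrogenase gene sodh-1 was at 26.99 in dcr-1 RNAi and 661 FPKM in mock (-4.56). The aquaglyceroporin gene aqp-1, of an aquaporin list added after values were seen, was at 7.26 FPKM in dcr-1 RNAi against 99.4 FPKM in mock (-3.60).

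Linker histones bind the DNA between nucleosomes, and of 7 genes 3 were at least 2-fold lower and 0 higher, with a median of -0.95. The most abundant of them, his-24, was at 141 FPKM in dcr-1 RNAi, against 505 FPKM in mock (-1.83), and hil-3 was at 58.1 in dcr-1 RNAi and 135 FPKM in mock (-1.204). hil-4 and hil-5 were close to mock, at 269 FPKM in dcr-1 RNAi against 227 FPKM in mock (0.24) and at 255 FPKM in both libraries. Against the same mock, drsh-1 RNAi gave his-24 a ratio of -1.27 and hil-3 -1.09. Among 20 core histone genes 2 were at least 2-fold higher and 0 lower, or 0 and 1 with a common sum, and nasp-2, a gene of the NASP histone chaperone family, was at 291 in dcr-1 RNAi and 632 FPKM in mock (-1.12).

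Translation genes were above mock at the ribosome and mixed elsewhere. Of the 81 ribosomal protein genes 79 were above mock and 5 at least 2-fold higher, with a median of 0.61. With a common sum 0 were at least 2-fold higher and the median was 0.32. rla-1, a protein of the ribosomal stalk, was at 4027 FPKM in the dcr-1 RNAi library and 1875 FPKM in mock (1.103), and rpl-24.2 and rpl-2 were the members below mock, at 131 FPKM in dcr-1 RNAi against 168 FPKM in mock (-0.35) and at 243 in dcr-1 RNAi and 307 FPKM in mock (-0.34). Mitochondrial ribosomal protein genes had a median of 0.16 over 65 genes, 0 at least 2-fold higher and 3 lower, and it turned below 0 with a common sum. Among the 5 cap-binding eIF4E genes, ife-1, the form of the germ granules, was at 203 FPKM in dcr-1 RNAi against 11.8 FPKM in mock (3.99). The other 4, ife-2 to ife-5, had ratios between -0.36 and 0.34, and drsh-1 RNAi gave ife-1 a ratio of -0.11 against the same mock. The elongation factor 2 gene eft-2 was at 206 in dcr-1 RNAi and 475 FPKM in mock (-1.201), and the initiation factor subunit gene eif-3.B at 93.8 FPKM in dcr-1 RNAi against 35.4 FPKM in mock (1.38, with unequal mock values). Of 33 proteasome subunits 32 were above mock and 1, or 0 with a common sum, was at least 2-fold higher, the lid subunit gene rpn-5 at 199.6 in dcr-1 RNAi and 87.3 FPKM in mock (1.18). The Hsp90 gene daf-21 was at 1545 FPKM in dcr-1 RNAi against 456 FPKM in mock (1.76), and cdc-48.1, which encodes the AAA protein that pulls ubiquitinated substrates apart, at 35.01 in dcr-1 RNAi and 3.14 FPKM in mock (3.12). Its paralog cdc-48.2, at 13.5 FPKM in mock, was listed for drsh-1 RNAi only. There cdc-48.2 had a ratio of -1.40 and cdc-48.1 one of 2.18. Sharing of reads between these paralogs was not tested, so the value of cdc-48.1 is uncertain.

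Lists of germ line and cell cycle genes lay close to mock, while a few members were far below it. Of 33 oocyte and maternal RNA regulators 0 were at least 2-fold higher and 3 lower. These are 0% and 9.09%, beside 6.71% and 6.53% of all listed genes. Their median of -0.09 turned above 0 once ratios were centred by 3' UTR length. ZK858.1, in RefSeq the cytoplasmic poly(A) polymerase gene gld-4, was at 8.64 FPKM in dcr-1 RNAi, against 89.7 FPKM in mock (-3.23), and spn-4, which encodes an RNA-binding protein of the early embryo, at 83.4 FPKM in dcr-1 RNAi against 393 FPKM in mock (-2.22). The related polymerase gene gld-2 was at 23.95 in dcr-1 RNAi and 32.8 FPKM in mock (-0.44). The poly(A) binding protein genes were pab-2 at 3.13 FPKM in dcr-1 RNAi against 27.4 FPKM in mock (-2.78) and pab-1 at 714 in dcr-1 RNAi and 608 FPKM in mock (0.23). Of 48 cell cycle genes 2 were at least 2-fold higher and 3 lower, or 4.17% and 6.25%, near the shares of all listed genes. With a common sum these were 1 and 5. The mitotic cyclin gene cyb-1 was at 2.38 FPKM in dcr-1 RNAi against 13.1 FPKM in mock (-2.06), the kinase gene cdk-2 at 8.06 in dcr-1 RNAi and 33.4 FPKM in mock (-1.93) and the kinesin gene klp-19 at 5.95 FPKM in dcr-1 RNAi against 24.7 FPKM in mock (-1.89). zyg-1, a kinase gene of centriole duplication, was at 31.1 in dcr-1 RNAi and 10.5 FPKM in mock (1.47, with unequal mock values). DNA replication genes numbered 0 at least 2-fold apart of 19, or 2 lower with a common sum, from mcm-4 at 172 FPKM in dcr-1 RNAi against 100.4 FPKM in mock (0.77) to mcm-6 at 61.5 in dcr-1 RNAi and 122 FPKM in mock (-0.98). Of 28 meiosis and germ granule genes the only member at least 2-fold apart, beside 2 lower with a common sum, was the P granule gene pgl-1, at 7.70 FPKM in dcr-1 RNAi against 18.4 FPKM in mock (-1.15).

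Small RNA pathway genes were themselves near mock, 0 of 49 at least 2-fold higher and 3 lower, with a median of -0.08. A further 2 genes of the pathway were listed for drsh-1 RNAi only. The shares of the 49 were 0% higher and 6.12% lower, beside 6.71% and 6.53% of all listed genes. The lower ones were nhl-2, a cofactor of microRNA silencing, at 5.42 FPKM in the dcr-1 RNAi library and 36.7 FPKM in mock (-2.55), the nuclear export receptor gene xpo-1 at 38.1 in dcr-1 RNAi and 155 FPKM in mock (-1.99) and the RNA-editing gene adr-1 at 10.8 FPKM in dcr-1 RNAi against 37.7 FPKM in mock (-1.71). csr-1, an Argonaute gene of endogenous small RNAs, was at 75.3 in dcr-1 RNAi and 50.5 FPKM in mock (0.57), and R04A9.2, in RefSeq the nuclear Argonaute gene nrde-3, at 11.1 FPKM in dcr-1 RNAi against 19.7 FPKM in mock (-0.77). The sex determination gene fem-1, after which the strain is named, was at 40.1 in dcr-1 RNAi and 38.8 FPKM in mock (0.05). Y71H2AM.19, the DEAD-box helicase gene laf-1 in RefSeq, was at 15.2 FPKM in dcr-1 RNAi against 51.4 FPKM in mock (-1.70).

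Among regulatory gene families, the share of members at least 2-fold apart differed, beside 6.71% higher and 6.53% lower of all listed genes. Of 95 nuclear hormone receptor genes 3 were at least 2-fold higher and 3 lower, or 2 and 10 with a common sum. Of 58 neuropeptide genes 0 were higher and 2 lower, or 0 and 5 with a common sum. Homeobox genes numbered 2 higher and 4 lower of 34, which is 5.88% and 11.8%, and 1 and 7 with a common sum. pal-1, the worm caudal gene, was at 39.2 FPKM in dcr-1 RNAi, against 8.68 FPKM in mock (2.05, with unequal mock values), and tab-1 at 8.74 in dcr-1 RNAi and 43.5 FPKM in mock (-2.19). Of 43 transthyretin-related genes, small secreted proteins of mostly unknown role, 10 were at least 2-fold higher and 3 lower, or 7 and 5 with a common sum. The extremes there were ttr-31 at 29.6 FPKM in dcr-1 RNAi against 5.15 FPKM in mock (2.32) and ttr-48 at 16.1 in dcr-1 RNAi and 114 FPKM in mock (-2.75).

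The size and direction of the ratio also ran with the length of the 3' UTR, the part of a transcript after its coding region, where most microRNA sites lie. Lengths are the longest annotated per gene, annotated for 8980 listed genes. Among the 2251 genes with 1 to 92 nt the median log2 ratio was 0.19, and 10.1% were at least 2-fold higher against 4.66% lower. Among the 2258 genes with 93 to 162 nt it was 0.18, with 8.77% and 3.37%. The 2226 genes with 163 to 302 nt had a median of 0.04, with 5.75% and 3.77%. For the 2245 genes with 303 to 5363 nt it was -0.22, with 2.58% higher and 12.9% lower. Genes below mock were thus most frequent in the group with the longest UTRs. Across the same groups drsh-1 RNAi, against the same mock library, had medians of 0.01, -0.00, 0.02 and -0.01. Over the 5405 genes with 1 annotated transcript the rank correlation with UTR length was -0.27, given as a description across genes, which share the same libraries. With the length of the longest transcript it was -0.11 over 9254 genes.

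**Figure D5:**
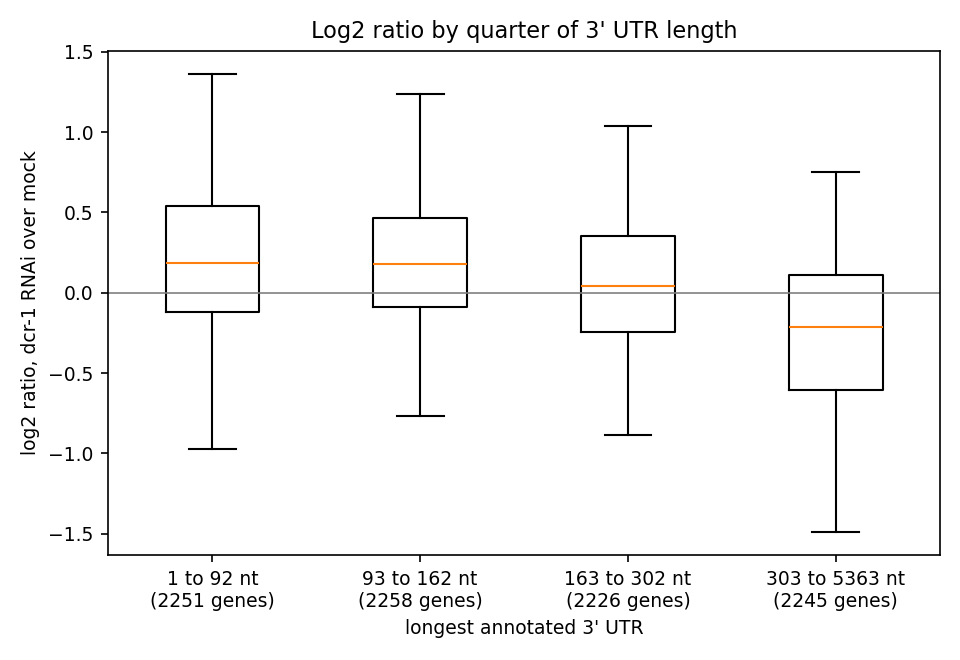
Log2 ratio of FPKM + 1, dcr-1 RNAi over mock, in 4 groups of genes by the length in nt of the longest annotated 3' UTR (orange line the median, box the quartiles, whiskers the 5th and 95th percentiles of genes). The median is 0.19 in the group with the shortest UTRs and -0.22 in that with the longest.

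Lists named above differed in UTR length. The median was 56 nt for ribosomal proteins, 65 nt for collagens and 79 nt for UDP-glucuronosyltransferases, against 162 nt for all genes, and 465 nt for oocyte and maternal RNA regulators. Centring each ratio on genes of similar UTR length gave medians of 0.41 for ribosomal proteins, 1.63 for collagens, 0.59 for UDP-glucuronosyltransferases, -1.11 for linker histones and -0.51 for DAF-16 and dauer genes. These are as deposited 0.61, 1.79, 0.76, -0.95 and -0.74. Troponin genes, with a median UTR of 220 nt, had 1.04 after centring beside 0.71. The part of UTR length in the other differences was not tested.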

How the data were processed

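PolyA RNA of 3 libraries was measured, of which dcr-1 RNAi and mock were compared here and drsh-1 RNAi was set beside them. Groups were taken from the titles, 1 library each. Per the labels' protocols, TRIzol was used for extraction and TruSeq for the libraries. Tools per the submitters' processing notes are SAMtools, Cufflinks, Cuffdiff 2.1.1, TopHat2 2.06 and CASAVA 1.8.2. Genome build, annotation and scaling between libraries are not given in the sources used here, and positions are therefore left out. The authors deposited FPKM values per gene and a log2 ratio. The tables have no header, and mock was taken as the column shared by both tables and as the denominator of the deposited log2 ratio, which equals that of FPKM + 1.

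From the deposited FPKM, log2 ratios with a pseudocount of 1 FPKM and differences were computed for all genes (Python 3.11.15, numpy 2.4.6, pandas 2.3.3, scipy 1.17.1, matplotlib 3.10.9), and the ratio step was tested on simulated data. No filter on low values was applied. At least 2-fold apart is a description of size. Read depth is unknown, so no counting error is given.

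Gene names were matched to RefSeq symbols (WBcel235), 5673 by sequence name and 3590 by symbol, with 368 unmatched. Transcript numbers and UTR lengths came from the Ensembl annotation of that assembly. Named genes are dcr-1, drsh-1 and pash-1, genes among the 25 highest and 25 lowest ratios at a mean of at least 5 FPKM, among the 15 largest gains or losses, and among the 4 highest and 4 lowest of a list or any member of a list of up to 15 genes, with their close paralogs. Other named members, such as mel-32, unc-54, lea-1, F22B8.6 and C06A8.1, were chosen after their values were seen. The members and all lists were chosen with earlier results of these data known, and 9 lists were added after values were seen.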

Additional observations from a re-analysis of the deposited data

How the results depend on the processing

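Limits are set by 1 library a group, an unknown depth and an unstated scaling between libraries. Directions of the 646 higher and 629 lower genes were described again under 10 other settings, of which those centred by 3' UTR length and with 1 annotated transcript were added after seeing the data. A pseudocount of 5 FPKM left 409 higher and 407 lower genes, since it shrinks ratios of low genes. A common sum of the listed genes gave 350 and 1000 and left 30 list medians above 0, against 53 as deposited. Genes with 1 annotated transcript numbered 403 and 319, fewer genes being counted. The other settings stayed within 1.5 times of the deposited counts, with 744 and 729 at a pseudocount of 0.1 FPKM, 554 and 695 after centring on the median, 545 and 702 with a common upper quartile, 611 and 613 at a mean of at least 5 FPKM, 599 and 600 among genes with equal mock values, and 499 and 518 after centring by UTR length. Of 71 list medians, 30 were above 0 and 11 below 0 under every setting run, and 30 changed sign under at least 1. Among genes with 1 annotated transcript, the troponin median was 1.64, the yolk median 3.19 and that of the B12-dependent route -0.86. Single-gene ratios were recomputed for the 633 named genes, though not after centring by UTR length or among genes with 1 annotated transcript, and 34 moved by more than 1.5-fold, all with a pseudocount of 5 FPKM. Only a change of pseudocount could move a ratio that far. The common scalings and the centring on the median shift log2 ratios by about 0.29 or less, and filters leave each ratio as it was. A minimum mean of 1 FPKM removed no gene and left 646 and 629. No paired analysis was possible because each group had 1 library, and for the same reason no library could be left out. The planned description of promoter motifs and the split by chromosome were not run, since no sequence or annotation of the files' own build was used here.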

Other observations

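Some of the genes farthest from mock in dcr-1 RNAi belong to none of the lists. Among the 25 highest ratios, F46F2.3 was at 483 FPKM in the dcr-1 RNAi library and 5.25 FPKM in mock (log2 ratio 6.27), F53F1.4 at 183 FPKM in dcr-1 RNAi against 4.42 FPKM in mock (5.09), C32H11.4 at 204 in dcr-1 RNAi and 8.75 FPKM in mock (4.39), T05E12.6 at 102 FPKM in dcr-1 RNAi against 6.32 FPKM in mock (3.81) and T13F3.6 at 358 in dcr-1 RNAi and 30.8 FPKM in mock (3.50). ZK6.11, the infection response gene irg-8 in RefSeq, was at 283 FPKM in dcr-1 RNAi against 20.4 FPKM in mock (3.73), and H17B01.4, a subunit gene of the endoplasmic reticulum membrane complex (emc-1), at 55.5 in dcr-1 RNAi and 3.58 FPKM in mock (3.63). Among the 25 lowest, F53A9.8 had the largest loss in FPKM of all genes, at 221 FPKM in dcr-1 RNAi, against 1752 FPKM in mock (-2.98). C06G3.3 was at 4.49 FPKM in dcr-1 RNAi against 89.996 FPKM in mock (-4.05), Y95B8A.8, the zinc finger RNA-binding gene zfr-1 in RefSeq, at 2.49 in dcr-1 RNAi and 41.8 FPKM in mock (-3.62), and C33C12.3, the glucocerebrosidase gene gba-1, at 2.83 FPKM in dcr-1 RNAi against 29.6 FPKM in mock (-2.998). The annotation used here gives these genes no further grouping.

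The 100 largest gains made up 50.9% of all gains in FPKM, over 5341 genes, and the 100 largest losses 32.4% of all losses, over 4289 genes. The 10 largest were nearer, at 13.4% of gains and 12.4% of losses. T07A5.5, ostf-4 in RefSeq, had the next largest gain after col-119, at 7369.8 FPKM in the dcr-1 RNAi library and 3859 FPKM in mock (0.93), and drsh-1 RNAi, against the same mock, gave it a ratio of 1.99. Genes with several annotated transcripts were at least 2-fold higher in 6.31% and lower in 7.39% of 3599 cases, and those with 1 transcript in 7.13% and 5.64% of 5655.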
